A study of Mus musculus with 55 samples.

Results

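The livers of OTC mice and of WT mice were compared where both had received a hairpin against Gls2, the liver glutaminase that releases ammonia from glutamine. The comparison used the 10 libraries labelled OTC sh-Gls2 and the 10 labelled WT sh-Gls2, which are 20 of the 55 liver libraries of the series, and it was made over all expressed genes as OTC minus WT. OTC mice are the B6EiC3Sn a/A-Otcspf-ash/J stock, which carries the spf-ash allele of the X-linked gene Otc, and WT mice are B6EiC3SnF1/J. The 2 stocks can differ at other loci too, and an effect of the Otc allele cannot be told apart from one of the rest of the genome. All mice were male, with an age of 5 months in the labels and of 4 months at the start in the study's design. Both groups received an adeno-associated virus (AAV) into a vein at week 0, moved from chow to a diet of 40% protein at week 2, and gave their livers at week 5. The other vectors of the study carried a scrambled hairpin (control, 10 WT and 8 OTC libraries) or a hairpin against Glud1 (sh-Glud1, 9 WT and 8 OTC libraries). Each library came from its own numbered mouse, apart from 1 OTC control library whose number could not be matched to its label.

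Ornithine transcarbamylase, the product of Otc, joins carbamoyl phosphate to ornithine in the mitochondria of hepatocytes and is an early step of the urea cycle, the main route by which the body disposes of ammonia. The spf-ash allele impairs splicing of the Otc transcript and leaves residual enzyme, and mice that carry it are used as a model of urea cycle disorder, in particular under a high protein load. In the liver lobule, periportal hepatocytes hold most of the urea cycle and glutaminase, while a rim of pericentral hepatocytes scavenges the ammonia left over by making glutamine. Male and female mouse livers also differ in a large set of genes, which follow the pulsatile or steady secretion of growth hormone.

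Levels are given as counts scaled to the library's size (CPM) with the trimmed-mean factors of edgeR (TMM), which allows a gene to be compared between libraries but not with another gene. Fold changes are on the log2 scale, OTC minus WT, so that 1 stands for a doubling. The value after ± is an approximate standard error. It is the size of the fold change divided by the square root of the quasi-likelihood F statistic of edgeR. A gene was called when the quasi-likelihood test of edgeR gave an adjusted p under 0.05, with Benjamini-Hochberg adjustment over 13311 tested genes. The 20 libraries held 14489866 to 22001267 counts each and 15624 to 16189 detected genes, and no 2 of them matched within counting noise. The first principal component of the 20 libraries held 32.003% of the variance. WT libraries lay between -33.6 and -8.96 on it and OTC libraries between 0.856 and 41.5, so that the groups did not overlap. In the plot of the targeted genes, each library is shown by strain and vector.

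**Figure D1:**
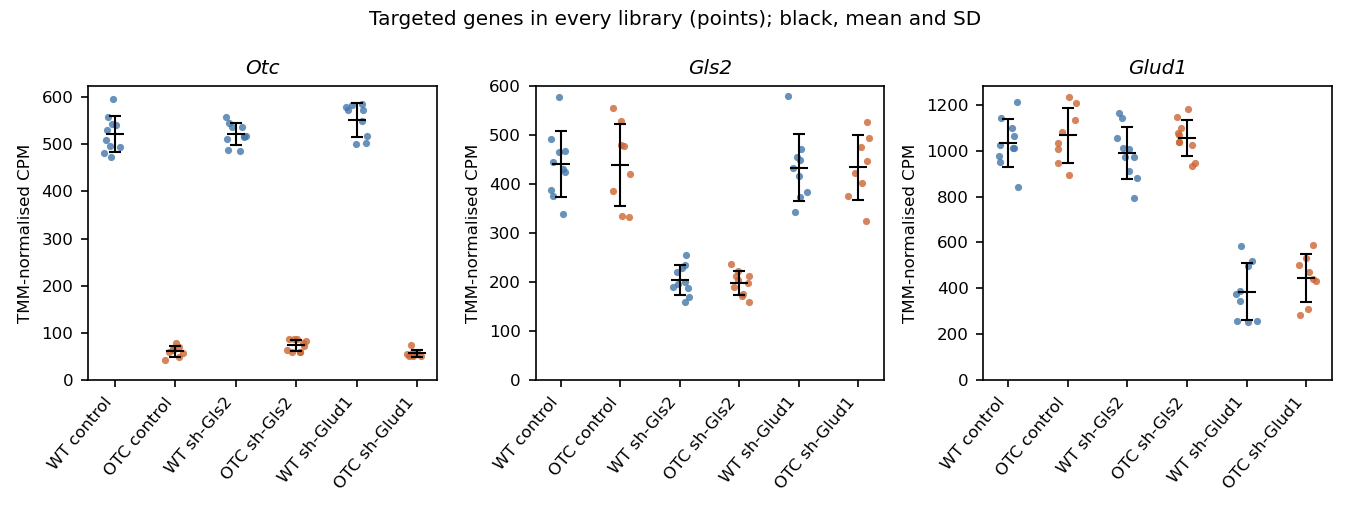
TMM-normalised CPM of Otc, Gls2 and Glud1 (vertical axes) in each of the 55 liver libraries, grouped by strain and vector, blue for WT and orange for OTC, with the mean and SD in black. Otc is low in every OTC group, and Gls2 is low in both sh-Gls2 groups at similar levels (medians of 198 CPM in WT and 201 CPM in OTC).

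Otc, at chrX:10252305-10321024 of GRCm38, checked the strain labels. It had 485 to 557 CPM in WT (median 518) and 59.46 to 87.2 in OTC (median 75.4). All 10 OTC libraries lay below all 10 WT libraries, with a log2 fold change of -2.82 ± 0.08 (adjusted p = 5.26e-33), and the OTC mean was 14.1% of the WT mean. Gls2, the target of the hairpin, had 159 to 255 CPM in WT (median 198) and 159 to 236 in OTC (median 201). The strains overlapped almost fully in Gls2 (log2 fold change -0.04 ± 0.10, adjusted p = 0.786), and both lay below the control libraries, whose medians were 438 CPM in WT and 449 CPM in OTC. Glud1, glutamate dehydrogenase and the target of the other hairpin, had 793 to 1165 CPM in WT (median 989) and 933 to 1181 in OTC (median 1053). It was not called either (log2 fold change 0.09 ± 0.12, adjusted p = 0.585).

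Of the 13311 tested genes, 3924 (29.5%) passed the test, of which 1935 (14.5% of all) had more RNA and 1989 (14.9% of all) less RNA in OTC. Most of these differences were small, with a median size of 0.37 on the log2 scale. At least a 2-fold rise was called for 185 genes (1.39%) and at least a 2-fold fall for 202 genes (1.52%). The OTC and WT libraries did not overlap at all in CPM for 362 genes (2.72%), of which 135 were higher (1.01%) and 227 lower (1.71%) in OTC. The split of the calls depends on the scaling. The TPM values that the authors deposited are scaled for transcript length and to the same sum in every library. They were tested with limma on log2(TPM + 1), without the TMM factors, which were 0.924 to 1.01 in WT and 1.01 to 1.10 in OTC. There, 4247 of 11310 tested genes were higher and 749 lower (85.0% of calls higher, against 49.3% on the TMM scale). The median of all tested genes moved from 0.01 to 0.12. The part of the TMM factors in this shift was not tested. Changes below are therefore relative to the TMM scale, and each count of a list that is not the same on the TPM scale is given on that scale too. The 14.5% and 14.9% are the background for the edgeR counts of each list below. For the counts on the TPM scale the background is 4247 higher and 749 lower of 11310 genes, so there rises are common and falls are rare.

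**Figure D2:**
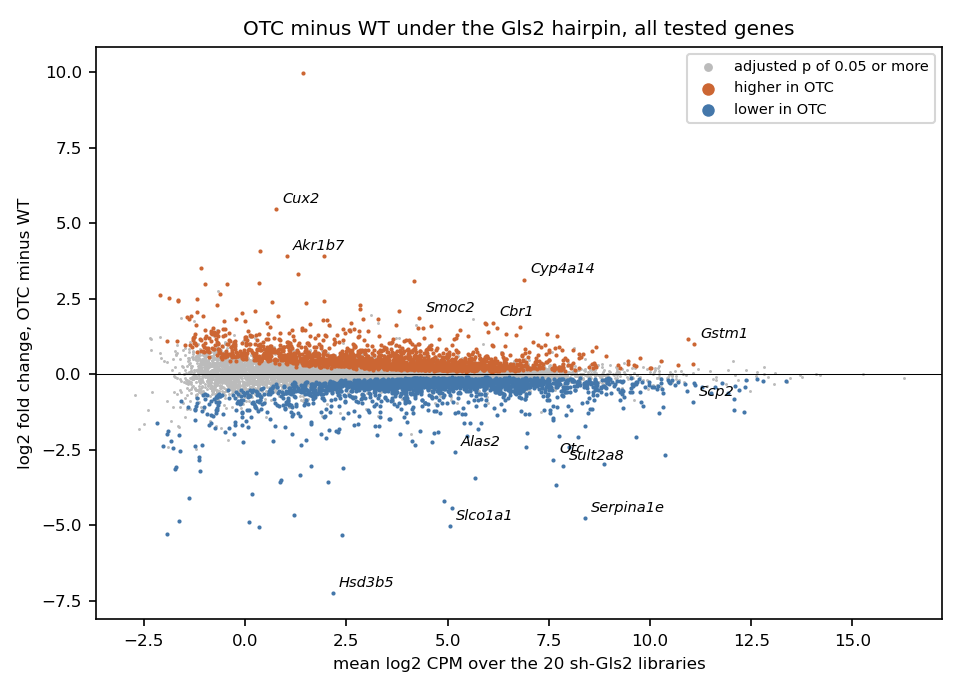
Log2 fold change, OTC minus WT (vertical axis), against the mean log2 CPM over the 20 sh-Gls2 libraries (horizontal axis) for the 13311 tested genes, orange where called higher in OTC, blue where called lower and grey where not called. Cux2 is among the highest, and Hsd3b5 and Slco1a1 are among the lowest.

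Genes that mark the male mouse liver were far lower in OTC livers. Of 36 tested male-biased genes, 30 were lower and 1 higher in OTC (27 lower and 1 higher of 33 on the TPM scale), with a median log2 fold change of -1.36 against 0.01 for all genes. The groups did not overlap for 7 of them. Hsd3b5, a male-specific steroid dehydrogenase, had 15.3 to 163 CPM in WT (median 51.6) and 0.0552 to 1.16 in OTC (median 0.316). All OTC libraries lay below all WT libraries (log2 fold change -7.24 ± 0.96, adjusted p = 1.38e-07). Slco1a1, an organic anion uptake carrier, had 188 to 483 CPM in WT (median 274) and 1.04 to 49.01 in OTC (median 2.07). Its fold change was -5.02 ± 0.86 on the log2 scale (adjusted p = 1.73e-05), again with no overlap. Ugt2b1, a glucuronosyltransferase, fell from a median of 437 to 107 CPM (log2 fold change -2.03 ± 0.19, adjusted p = 1.21e-11) and kept the strains apart under each of the 3 vectors.

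The same direction was seen in other male-biased genes with other tasks. Elovl3, an elongase of very long chain fatty acids, had a log2 fold change of -3.43 ± 0.82 (adjusted p = 0.00131). Serpina1e, an alpha-1-antitrypsin isoform, fell from a median of 2244 to 50.9 CPM (log2 fold change -4.77 ± 0.80, adjusted p = 1.20e-05). Ttc39c fell by 1.17 on the log2 scale (adjusted p = 1.95e-07) with no overlap. Bcl6, a transcriptional repressor with higher levels in male livers, fell from a median of 51.9 to 9.64 CPM, although its ranges overlapped (log2 fold change -2.20 ± 0.51, adjusted p = 0.000886). Bcl6 was named after its values were seen.

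Major urinary proteins, pheromone carriers that the male liver secretes in bulk, moved the same way. Of 19 tested Mup genes, 11 were lower and 0 higher (15 lower and 0 higher of 19 on the TPM scale), with a median of -1.98. Mup3 had 2365 to 5535 CPM in WT (median 3923) and 161 to 1613 in OTC (median 363). All OTC libraries were lower (log2 fold change -2.67 ± 0.46, adjusted p = 2.04e-05). Mup10 had 16.49 to 690.4 CPM in WT (median 125) and 0.937 to 32.4 in OTC (median 8.36), and -4.43 was its fold change on the log2 scale (adjusted p = 2.54e-05). Mup genes are near-identical copies, so reads may have been split between them and single members are uncertain.

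Of 31 tested female-biased genes, 10 were higher, 4 lower and 17 not called (11 higher and 2 lower of 28 on the TPM scale), with a median of 0.87. Cux2, a female-specific transcription factor, had 0.197 to 1.33 CPM in WT (median 0.308) and 0.120 to 54.7 in OTC (median 9.42), and Fmo2, a flavin monooxygenase, had 5.505 to 8.44 CPM in WT (median 7.40) and 8.08 to 121 in OTC (median 42.7). Cux2 was above the WT range in 8 of 10 OTC libraries and Fmo2 in 9 of 10, with log2 fold changes of 5.46 ± 0.95 and 3.08 ± 0.58 (adjusted p = 2.30e-05 and 6.18e-05).

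Further female-biased genes rose as well. Sult1e1, the estrogen sulfotransferase, rose by 3.93 ± 0.88 (adjusted p = 0.000617), Trim24, a chromatin reader and cofactor of nuclear receptors, by 1.29 ± 0.23 (adjusted p = 3.30e-05), and Cyp4a14, a fatty acid omega-hydroxylase, by 3.13 ± 0.65 (adjusted p = 0.000275), all on the log2 scale. The lower members were Cyp2b13, Cyp2c69, Gpr12 and Hao2, which also stands in the male-biased list. Cyp2b13, a female-predominant cytochrome P450, had 0 to 43.4 CPM in WT (median 5.88) and 0 to 1.54 in OTC (median 0.318) and fell by 5.07 on the log2 scale (adjusted p = 0.000477); it was named after its values were seen and belongs to a family of near-identical genes.

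A pair of OTC mice stood apart in these genes. The Fmo2 levels of OTC mice 31 and 39 were 12.2 and 8.08 CPM, the lowest of the OTC group. They also held the highest OTC levels of Slco1a1 (14.2 and 49.01 CPM), Elovl3 (71.1 and 150.3 CPM) and Mup3 (1475 and 1613 CPM). Without these 2 libraries, a choice made after their values were seen, 31 of 36 male-biased genes were lower with a median of -1.70. Of the female-biased genes, 14 of 31 were then higher with a median of 1.11. The 2 mice were picked for lying near WT in such genes, so the larger medians follow largely from that choice. The plot of sex-biased genes marks the 2 mice.

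**Figure D3:**
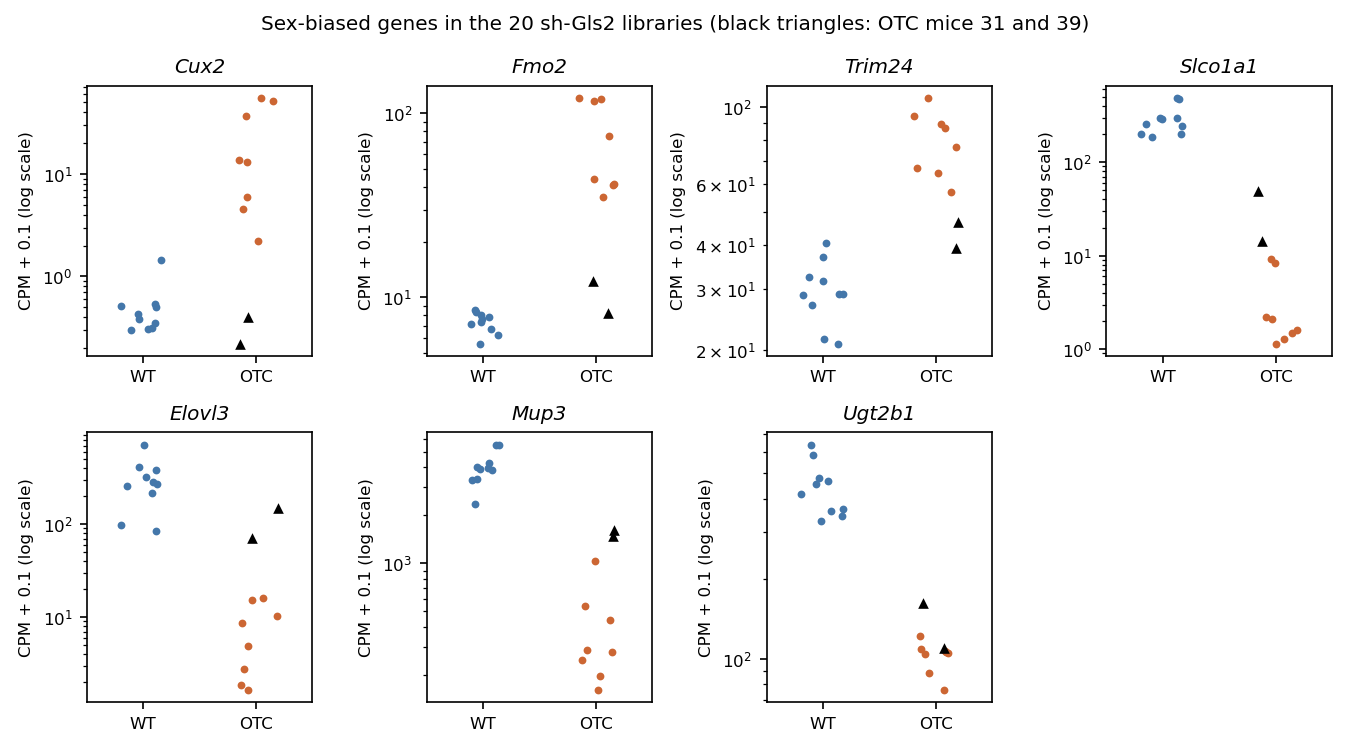
CPM + 0.1 on a log scale (vertical axes) of 3 female-biased genes (Cux2, Fmo2, Trim24) and 4 male-biased genes (Slco1a1, Elovl3, Mup3, Ugt2b1) in the 10 WT (blue) and 10 OTC (orange) libraries under the Gls2 hairpin, with OTC mice 31 and 39 as black triangles. The 2 mice lie nearest to the WT libraries in 6 of the 7 panels, and Ugt2b1 separates the strains with all 10 OTC libraries between 76.0 and 161 CPM.

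Of 17 tested genes of the growth hormone and IGF axis, 4 were higher and 5 lower (4 higher and 4 lower of 15 on the TPM scale). The receptor Ghr had 422 to 574 CPM in WT (median 544) and 243 to 339 in OTC (median 297). No OTC library reached a WT library (log2 fold change -0.85 ± 0.14, adjusted p = 8.70e-06). Lifr, the receptor of leukemia inhibitory factor, fell by 1.06 (adjusted p = 5.16e-05), Egfr, the epidermal growth factor receptor, by 1.30 (adjusted p = 0.000752), and Igfals, which holds IGF1 in the circulation, by 0.53 (adjusted p = 0.001), on the log2 scale. Igf1 itself was not called, with medians of 597 to 564 CPM from WT to OTC (log2 fold change -0.11 ± 0.11, adjusted p = 0.459). Socs2, an inhibitor of growth hormone signalling, rose by 1.82 ± 0.49 (adjusted p = 0.00363) and Igfbp1, a binding protein induced in fasting, by 1.70 ± 0.55 (adjusted p = 0.0168). Igf1, Socs2 and Igfbp1 were named after their values were seen.

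**Figure D4:**
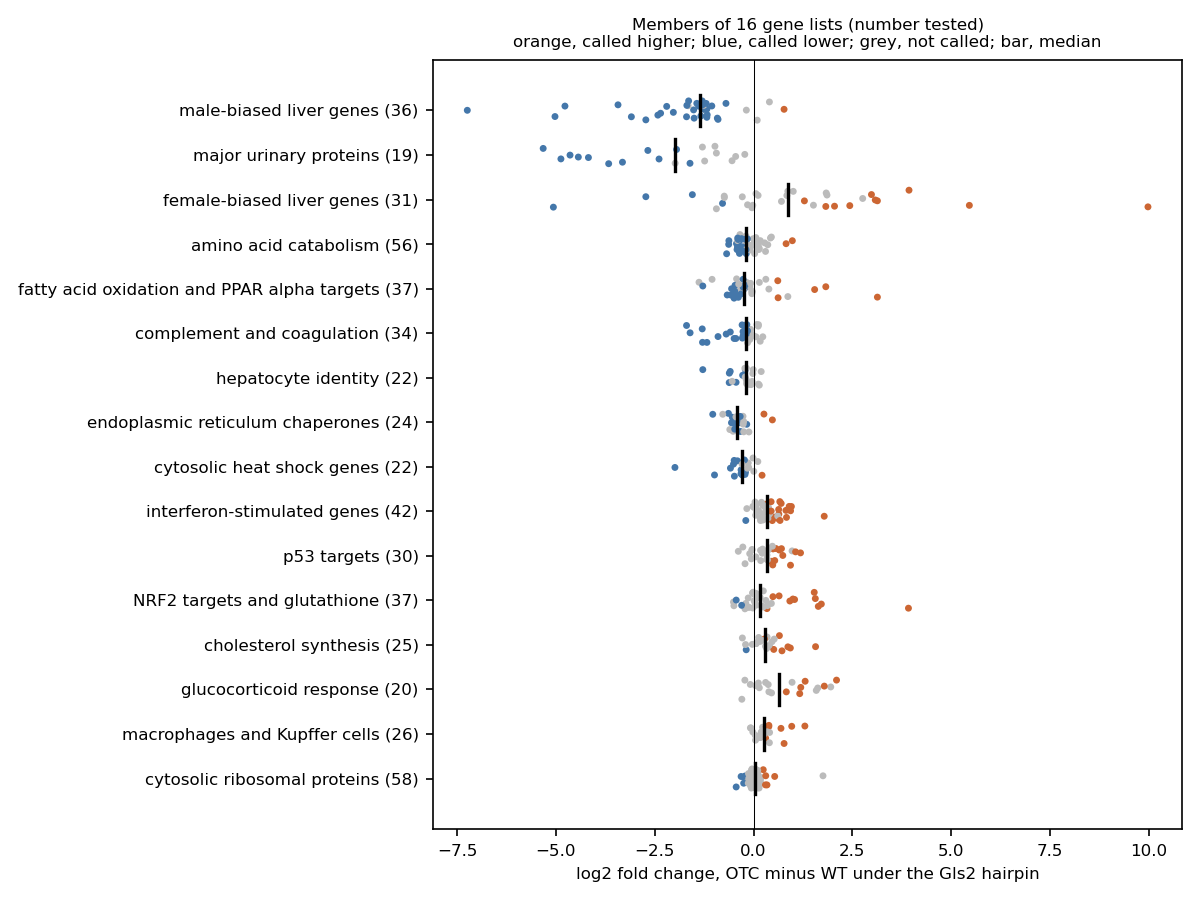
Log2 fold change of each tested member (points, horizontal axis), OTC minus WT under the Gls2 hairpin, for 16 gene lists (rows, with the number tested), orange where called higher, blue where called lower, grey where not called, with the list's median as a black bar. Male-biased genes and major urinary proteins have the lowest medians (-1.36 and -1.98).

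Of 9 enzymes and carriers of the urea cycle, 1 was higher and 2 lower, Otc included, a share near the 29.5% called over all genes. With TPM values 4 were higher and 1 lower, and the median turned from -0.12 to 0.03. Asl, argininosuccinate lyase, had 314 to 494 CPM in WT (median 396) and 456 to 845 in OTC (median 572), above the WT range in 9 of 10 OTC libraries (log2 fold change 0.61 ± 0.21, adjusted p = 0.0243). That call was lost without OTC mouse 4 (log2 fold change 0.55, adjusted p = 0.0542). Car5a, the mitochondrial carbonic anhydrase that supplies bicarbonate to the cycle, fell by 0.33 (adjusted p = 0.0236), which no longer passed when OTC mouse 21 was left out (adjusted p = 0.0544).

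Genes that handle glutamine and ammonia moved in both directions. Of 19 tested, 5 were higher and 5 lower, and the lower count was 3 without WT mouse 78, OTC mouse 31 or OTC mouse 21. On the TPM scale, 4 of 17 were higher and 3 lower, and the median turned from -0.03 to 0.08. The lower genes included those of the pericentral rim. Rhbg, an ammonium transporter, had 9.59 to 16.48 CPM in WT (median 14.3) and 3.80 to 10.96 in OTC (median 6.62) (log2 fold change -0.99 ± 0.16, adjusted p = 9.40e-06). Oat, ornithine aminotransferase, had 799 to 1819 CPM in WT (median 1202) and 401 to 822 in OTC (median 660.04) (log2 fold change -1.03 ± 0.20, adjusted p = 0.000142). For both genes 9 of 10 OTC libraries lay below the WT range. Glul, glutamine synthetase, fell by 0.57 (adjusted p = 0.0444), a call lost in 14 of the 20 fits that left out 1 library, and Slc38a3, a glutamine transporter, fell by 0.42 (adjusted p = 0.00212). Among the higher genes was Slc1a5, a neutral amino acid exchanger, whose median went from 1.10 to 2.20 CPM (log2 fold change 0.95 ± 0.25, adjusted p = 0.00296). Glul and Slc1a5 were named after their values were seen.

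Many enzymes of amino acid breakdown were lower. Of 56 tested, 25 were lower and 2 higher, with a median of -0.20, and the strains did not overlap for 8 of the lower genes. On the TPM scale the counts were 15 lower and 10 higher with a median of -0.05. Agxt2, a mitochondrial aminotransferase, had 114 to 145 CPM in WT (median 124) and 66.2 to 108 in OTC (median 77.1) (log2 fold change -0.63 ± 0.08, adjusted p = 1.02e-07). Amt, the aminomethyltransferase of the glycine cleavage system, had 43.03 to 58.6 CPM in WT (median 48.9) and 23.8 to 40.52 in OTC (median 31.96) (log2 fold change -0.62 ± 0.10, adjusted p = 3.98e-06). In both genes every OTC library was below every WT library. Pccb and Acadsb, which act in the breakdown of propionate and branched-chain amino acids, fell by 0.39 and 0.40 (adjusted p = 1.45e-07 and 1.69e-06), also without overlap. Sds, serine dehydratase, went the other way, with 99.2 to 186 CPM in WT (median 134) and 187 to 307 in OTC (median 256), and all OTC libraries above all WT libraries (log2 fold change 0.82 ± 0.25, adjusted p = 0.00909). Sds was named after its values were seen.

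Zonation markers were split. Of 26 pericentral genes, 10 were lower and 5 higher (median -0.18), with 6 lower and 6 higher on the TPM scale. Slc22a3, an organic cation transporter, fell from a median of 4.44 to 0.872 CPM (log2 fold change -1.98 ± 0.32, adjusted p = 7.26e-06) with no overlap. Ahr, the aryl hydrocarbon receptor, rose in all 10 OTC libraries above the WT range (log2 fold change 0.56 ± 0.12, adjusted p = 0.000255). Of 24 periportal genes, 5 were higher and 2 lower (median 0.14), with 12 higher and 2 lower of 24 on the TPM scale. The share of periportal genes called in edgeR, 29.2%, was near the 29.5% over all genes. Pck1, the rate-setting enzyme of gluconeogenesis, had 932 to 2095 CPM in WT (median 1247) and 1877 to 3884 in OTC (median 2972) (log2 fold change 1.17 ± 0.23, adjusted p = 0.00012). Etnppl, a phospho-lyase of ethanolamine phosphate, rose by 0.80 ± 0.18 (adjusted p = 0.00074), with all OTC libraries above the WT range. Ctsc, the protease cathepsin C, rose by 0.66 ± 0.15 (adjusted p = 0.000599), and Serpina1c, an alpha-1-antitrypsin isoform, fell by 1.25 (adjusted p = 3.21e-10). Serpina1 isoforms share reads, so single members are uncertain.

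Part of the interferon-stimulated genes were higher in OTC. Of 42 tested, 17 were higher and 1, Ifi35, lower, with a median of 0.34, and 27 of 41 were higher and 0 lower on the TPM scale. The higher count was 11 without WT mouse 45 or without WT mouse 78. Type I interferons act on such genes through an element in their promoters, the ISRE, and the promoters of 2 members are shown because both genes rose and both carry its core, taken here as 2 copies of GAAA with any 2 bases between them and searched on both strands. The bases end just before the RefSeq start of the gene in GRCm38.p6, run 5′ to 3′ along the gene's strand, and have the core in capitals, which holds TTTC where it lies on the other strand.
Ifit1: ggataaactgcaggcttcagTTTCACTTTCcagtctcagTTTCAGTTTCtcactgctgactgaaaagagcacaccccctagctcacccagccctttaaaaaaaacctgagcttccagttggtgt
Rsad2: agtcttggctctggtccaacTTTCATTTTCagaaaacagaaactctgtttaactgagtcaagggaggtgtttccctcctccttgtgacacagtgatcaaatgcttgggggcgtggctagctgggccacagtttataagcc
The Ifit1 stretch is chr19:34640765-34640888 on the plus strand and holds 2 matches, and the Rsad2 stretch is chr12:26456453-26456592 on the minus strand and holds 1. The core occurs in the 250 bases before the start in 11 of the 30 list members with a RefSeq promoter, in 3.36% of the 10080 tested genes with a promoter and in 2.98% of all 32851 promoters of that length. Of the 14 higher members with a promoter, 5 held it. A match is a description of the letters and not evidence of binding.

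Ifit1, which binds foreign RNA caps, had 7.11 to 36.4 CPM in WT (median 16.2) and 17.05 to 42.1 in OTC (median 33.6). Rsad2, the antiviral enzyme viperin, had 9.22 to 39.1 CPM in WT (median 16.4) and 22.2 to 48.05 in OTC (median 33.52). The ranges overlapped in both, with log2 fold changes of 0.82 ± 0.22 and 0.90 ± 0.20 (adjusted p = 0.00321 and 0.000563). Mx1, an antiviral GTPase, had 0.988 to 3.64 CPM in WT (median 1.93) and 3.79 to 11.2 in OTC (median 7.16) and was the 1 member whose groups did not overlap (log2 fold change 1.79 ± 0.24, adjusted p = 2.46e-07). Ifit2, of the same family as Ifit1, rose by 0.94 ± 0.16 (adjusted p = 1.87e-05). Genes induced by interferon gamma were counted separately. Of 18 guanylate-binding proteins and related GTPases, 0 were higher and 1, Gbp10, was lower, falling from a median of 48.03 to 18.3 CPM (log2 fold change -1.29 ± 0.32, adjusted p = 0.00219). In edgeR the other 17 were not called, and 1 of the 18 were higher and 2 lower at an unadjusted p under 0.05. With TPM values 2 of 17 were higher and 1 lower.

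Of 20 tested MHC class I genes, 5 were lower and 2 higher, together a share near the 29.5% called over all genes. The counts were 1 lower and 8 higher on the TPM scale, where the median turned from -0.04 to 0.13. The heavy chains H2-K1 and H2-D1 fell by 0.49 and 0.34 (adjusted p = 0.00168 and 0.00112), and their partner B2m fell by 0.30 (adjusted p = 0.000201). The calls of H2-D1 and B2m were lost on the TPM scale (adjusted p = 0.0609 and 0.0685). Heavy chain genes are similar in sequence and differ between mouse haplotypes, so their values in the 2 stocks are uncertain. Nlrc5, the transactivator of MHC class I, rose by 0.43 ± 0.10 (adjusted p = 0.00161). Leaving out 1 library brought the lower count of this list to 3 in 9 of 20 fits.

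Targets of p53, the DNA damage response factor, were higher or not called. Of 30 tested, 11 were higher and 0 lower, with a median of 0.35, and 18 of 26 were higher on the TPM scale. Bax, which opens the outer mitochondrial membrane in apoptosis, had 12.2 to 16.1 CPM in WT (median 14.7) and 20.4 to 27.4 in OTC (median 24.1) (log2 fold change 0.74 ± 0.11, adjusted p = 1.38e-06). Mdm2, the ligase that degrades p53, had 27.3 to 38.1 CPM in WT (median 33.46) and 40.6 to 60.7 in OTC (median 43.8) (log2 fold change 0.45 ± 0.10, adjusted p = 0.000616). Polk, a translesion DNA polymerase, rose by 0.65 ± 0.14 (adjusted p = 0.0005). In these 3 genes no OTC library overlapped a WT library. Zmat3, an RNA-binding zinc finger protein, rose by 0.71 ± 0.17 (adjusted p = 0.00103) with overlap.

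Many chaperones were lower in OTC. In the endoplasmic reticulum, 12 of 24 tested chaperones and folding factors were lower and 2 higher, with a median of -0.42, and 5 of 23 were lower on the TPM scale. Calr, the lectin chaperone calreticulin, had 567 to 907 CPM in WT (median 820.3) and 452 to 681 in OTC (median 528) (log2 fold change -0.54 ± 0.11, adjusted p = 0.000369). The protein disulfide isomerases P4hb and Pdia3 fell by 0.34 and 0.41 (adjusted p = 0.000449 and 0.00176). Of 22 heat shock genes, 13 were lower and 1 higher, with a median of -0.29, and 7 of 21 were lower on the TPM scale. Hspa1b, the inducible Hsp70, had 4.35 to 16.7 CPM in WT (median 7.04) and 0.770 to 4.55 in OTC (median 1.69) and lay below the WT range in 9 of 10 OTC libraries (log2 fold change -1.99 ± 0.39, adjusted p = 0.000115). The Hsp90 partners Ahsa1 and Fkbp4 fell by 0.32 and 0.48 (adjusted p = 0.000262 and 0.000576). Hspd1, the mitochondrial Hsp60, fell by 0.23 with no overlap (adjusted p = 0.000273), but was not called on the TPM scale (adjusted p = 0.144).

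Detoxification genes rose in part. Of 37 tested targets of NRF2 and glutathione genes, 11 were higher and 2 lower (14 higher and 1 lower of 35 on the TPM scale), with a median of 0.17. Akr1b7, an aldo-keto reductase, had 0.126 to 1.04 CPM in WT (median 0.505) and 1.69 to 14.8 in OTC (median 8.47) (log2 fold change 3.92 ± 0.45, adjusted p = 4.69e-09). Cbr1, a carbonyl reductase, had 31.1 to 56.2 CPM in WT (median 38.4) and 82.9 to 165 in OTC (median 131) (log2 fold change 1.72 ± 0.18, adjusted p = 4.00e-10). Gstm1, a glutathione S-transferase, had 1205 to 1946 CPM in WT (median 1522) and 2057 to 4360.5 in OTC (median 2957) (log2 fold change 0.997 ± 0.18, adjusted p = 2.72e-05). All OTC libraries were above all WT libraries in these 3 genes, and Abcc4, an efflux pump, rose by 1.64 ± 0.31 with overlap (adjusted p = 8.76e-05). Of 27 xenobiotic cytochromes P450 and related genes, 8 were higher and 8 lower (10 higher and 6 lower of 26 on the TPM scale). Cyp2j5, an epoxygenase of arachidonic acid, fell from a median of 550.3 to 248 CPM without overlap (log2 fold change -1.14 ± 0.13, adjusted p = 2.58e-09), and Cyp2c29, a P450 of a family that shares reads, fell by 1.08 (adjusted p = 4.71e-08).

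Sterol and bile acid genes changed at several steps. Of 25 genes of cholesterol synthesis, 7 were higher and 1, Ebp, lower, with a median of 0.30, and 14 were higher and 0 lower on the TPM scale. Lss and Fdft1, which form lanosterol and squalene, rose by 0.93 ± 0.19 and 0.72 ± 0.19 (adjusted p = 0.000252 and 0.00294), and Idi1, an isomerase of isoprenoid precursors, by 0.65 ± 0.21 (adjusted p = 0.0168). Under the other vectors the list had 0 higher and 2 lower (control) and 12 higher and 0 lower (sh-Glud1). Of 26 bile acid genes, 7 were higher and 8 lower (9 higher and 6 lower of 26 on the TPM scale). Slc51b, a subunit of the basolateral bile acid exporter, had 0.458 to 1.14 CPM in WT (median 0.582) and 1.26 to 5.53 in OTC (median 3.43) (log2 fold change 2.40 ± 0.30, adjusted p = 4.45e-08). Abcg5, one partner of the sterol exporter, had 71.9 to 127 CPM in WT (median 97.02) and 136 to 245 in OTC (median 208) (log2 fold change 1.07 ± 0.17, adjusted p = 4.07e-06). Scp2, a sterol carrier and peroxisomal thiolase, had 2562 to 3453 CPM in WT (median 2957) and 1277 to 2031 in OTC (median 1498) (log2 fold change -0.92 ± 0.10, adjusted p = 4.07e-10). The groups did not overlap in these 3 genes. Baat, which conjugates bile acids with amino acids, fell by 0.41 (adjusted p = 5.21e-06).

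Several enzymes of fatty acid oxidation were lower, most of the named ones mitochondrial. Of 37 tested genes, 15 were lower and 5 higher, with a median of -0.24, and 8 were lower and 6 higher on the TPM scale. Acads, the short-chain acyl-CoA dehydrogenase, had 125 to 147 CPM in WT (median 133) and 93.9 to 108 in OTC (median 102) (log2 fold change -0.39 ± 0.05, adjusted p = 9.62e-08). Hadha, a subunit of the trifunctional protein, had 295 to 373 CPM in WT (median 325) and 241 to 287 in OTC (median 264) (log2 fold change -0.32 ± 0.06, adjusted p = 9.17e-05). Neither gene's strains overlapped. Cpt2, of the carnitine shuttle, fell by 0.46 (adjusted p = 0.000157). The called rises of this list included Cyp4a14, described above. Of 32 genes of lipogenesis and triglyceride assembly, 5 were higher and 8 lower, with 6 higher and 4 lower on the TPM scale. Elovl5, a fatty acid elongase, and G0s2, an inhibitor of triglyceride lipase, fell by 1.16 and 1.72 (adjusted p = 0.000323 and 0.00116), while Scd2, a desaturase, rose in all 10 OTC libraries above the WT range (log2 fold change 0.89 ± 0.18, adjusted p = 0.000143).

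Glucocorticoid-responsive genes were higher or not called. Of 20 tested, 6 were higher and 0 lower, with a median of 0.64, and 10 of 20 were higher on the TPM scale. The edgeR share of called genes was near the 29.5% over all genes, although every call was a rise. The 6 higher genes included Pck1, described above, and Per1, a clock gene whose WT levels differed with the mouse number, as described below. Gadd45b, a stress-induced gene, had 0.753 to 4.28 CPM in WT (median 2.30) and 3.49 to 17.8 in OTC (median 7.88) (log2 fold change 1.79 ± 0.36, adjusted p = 0.000159). Zbtb16, a transcription factor that glucocorticoids induce, had 7.72 to 23.02 CPM in WT (median 15.03) and 15.2 to 52.8 in OTC (median 39.46) (log2 fold change 1.20 ± 0.33, adjusted p = 0.00462). Both overlapped between the strains, with 8 and 7 of 10 OTC libraries above the WT range. Of 31 glucose genes, 7 were higher and 5 lower, and 13 and 2 of 30 on the TPM scale. Counts of 4 higher were found without WT mouse 8, WT mouse 14, OTC mouse 74 or OTC mouse 4, and 3 lower without any of 8 libraries. Pfkfb3, which drives glycolysis through fructose bisphosphate, rose by 1.14 ± 0.27 (adjusted p = 0.000994), and Ppargc1a, a coactivator induced in fasting, by 1.02 ± 0.26 (adjusted p = 0.00214). Ppp1r3c, a glycogen-targeting subunit of protein phosphatase, fell by 1.04 (adjusted p = 0.001).

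Among clock genes, 3 of 20 tested were higher and 4 lower, against 10 higher and 2 lower of 19 on the TPM scale. The promoters of 2 of the higher ones are shown because the E-box, CACGTG, through which CLOCK and its partner act, is in both, in capitals.
Per1: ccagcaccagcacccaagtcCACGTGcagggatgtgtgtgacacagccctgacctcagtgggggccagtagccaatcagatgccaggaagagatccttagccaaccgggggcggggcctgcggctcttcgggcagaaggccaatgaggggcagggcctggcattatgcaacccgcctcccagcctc
Ciart: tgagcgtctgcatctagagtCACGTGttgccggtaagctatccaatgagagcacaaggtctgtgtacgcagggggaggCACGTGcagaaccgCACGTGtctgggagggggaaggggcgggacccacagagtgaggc
The Per1 stretch is chr11:69098763-69098948 on the plus strand with 1 match, and the Ciart stretch is chr3:95882229-95882364 on the minus strand with 3, both of GRCm38.p6 from RefSeq. The letters read the same on both strands, and 6.02% of all promoters hold them in the 250 bases before the start. Counted per gene, 9.74% of the 10080 tested genes with a promoter and 5 of 17 clock genes with one hold them.

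The clock repressor Per1 had 1.83 to 22.9 CPM in WT (median 6.44) and 6.67 to 57.2 in OTC (median 38.6) (log2 fold change 2.10 ± 0.46, adjusted p = 0.000555). Ciart, another repressor, had 0.0630 to 7.15 CPM in WT (median 0.431) and 1.52 to 20.1 in OTC (median 10.46) (log2 fold change 2.35 ± 0.59, adjusted p = 0.00205). Usp2, a clock-controlled deubiquitinase, rose by 2.29 ± 0.56 (adjusted p = 0.00152), and Clock fell by 0.37 (adjusted p = 0.00234). In WT, levels of Per1 and Ciart differed with the mouse number, a split chosen after the values were seen. The 3 WT mice numbered 45 or higher had 12.4 to 22.9 CPM of Per1 and 3.01 to 7.15 CPM of Ciart. The 7 WT mice with lower numbers had 1.83 to 8.68 CPM of Per1 and 0.0630 to 1.10 CPM of Ciart, so the WT subsets did not overlap. They did not overlap in Usp2 either, with 0.98 to 3.80 CPM below 45 and 6.17 to 15.5 CPM at 45 or higher. Clock had 66.0 to 77.5 and 50.4 to 57.8 CPM in the same WT subsets. Other named genes were split in this way in WT too, among them Lifr, Serpina3k, Serpina1c, Cebpa and Zcchc7. The labels do not say what a number stands for, and the OTC group held 5 mice of each kind. The OTC subsets overlapped, with 6.67 to 57.2 CPM of Per1 below 45 and 16.8 to 51.8 CPM at 45 or higher, and 1.52 to 20.1 and 3.755 to 20.06 CPM of Ciart. Among mice numbered below 45, Per1 differed by 2.86 (adjusted p = 0.000648) and Ciart by 4.30 (adjusted p = 5.12e-05); among the others by 1.16 (adjusted p = 0.374) and 1.12 (adjusted p = 0.398). Without WT mouse 78 or without OTC mouse 31, 6 clock genes were higher, and without WT mouse 79 or OTC mouse 39, 5. The part of whatever the mouse numbers mark in these differences was not tested.

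Many secreted plasma proteins were lower in OTC. Of 34 complement and coagulation genes, 20 were lower and 0 higher, with a median of -0.19 and 5 lower without overlap. On the TPM scale 11 were lower and 5 higher. F11, coagulation factor XI, had 57.2 to 97.2 CPM in WT (median 74.1) and 19.9 to 30.998 in OTC (median 23.8) (log2 fold change -1.61 ± 0.12, adjusted p = 3.56e-14). C4bp, which holds C4 in check, fell by 0.69 (adjusted p = 2.45e-06) and C8b, a subunit of the membrane attack complex that also stands in the male-biased list, by 1.18 (adjusted p = 1.66e-05). All but C8b were free of overlap.

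Of 25 acute phase genes, 8 were lower and 3 higher (6 lower and 4 higher of 25 on the TPM scale). Orm2, an acid glycoprotein, had 55.6 to 184 CPM in WT (median 106) and 10.3 to 56.4 in OTC (median 30.4) (log2 fold change -1.82 ± 0.33, adjusted p = 4.72e-05). Serpina3k, a serine protease inhibitor, and Saa4, a constitutive serum amyloid, fell by 1.19 and 0.77 (adjusted p = 6.18e-05 and 9.15e-05). Lbp, which binds lipopolysaccharide, rose from a median of 86.46 to 156 CPM (log2 fold change 0.85 ± 0.18, adjusted p = 0.000244). Of 22 hepatocyte identity genes, 7 were lower and 0 higher in edgeR, with 5 lower and 2 higher on the TPM scale. Ttr, the thyroxine carrier transthyretin, fell by 0.61 (adjusted p = 0.000853), Serpina1a by 0.62 (adjusted p = 5.27e-07), Fabp1, the liver fatty acid binding protein, by 1.28 (adjusted p = 0.00137), and Cebpa, a transcription factor of hepatocytes, by 0.44 (adjusted p = 0.00152). The summed level of 8 hepatocyte markers was 95625 to 134201 CPM in WT and 107826 to 133812 CPM in OTC. Hepatocyte markers were thus abundant in both groups and their sums overlapped. Sums of markers, here and below, are in CPM without the TMM factors, unlike the levels of single genes.

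Alas2, the first enzyme of heme synthesis in red cell precursors, had 68.9 to 141 CPM in WT (median 88.4) and 7.52 to 25.1 in OTC (median 14.2) and no overlap (log2 fold change -2.57 ± 0.28, adjusted p = 1.07e-09). Slc4a1, an anion exchanger of red cells, fell by 1.78 (adjusted p = 0.00492), and 3 of 7 erythroid genes were lower (1 of 6 on the TPM scale). The summed level of Alas2 and 2 globin genes, without the TMM factors, was 75.4 to 325 CPM in WT and 12.0 to 324 CPM in OTC. These sums overlapped, and the part of red cell precursors in the fall of Alas2 was not tested. In bulk liver, fewer cells of a type and less RNA per cell cannot be told apart. Alas1, the form of the enzyme that hepatocytes use, rose by 1.33 ± 0.38 (adjusted p = 0.00691).

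Genes of other liver cells were counted by cell type, against the edgeR background of 14.5% higher and 14.9% lower over all genes. Of 26 macrophage and Kupffer cell genes, 8 were higher and 0 lower (5 higher without WT mouse 45, WT mouse 18 or OTC mouse 21, and 12 of 21 on the TPM scale). The sum of 8 markers was 113 to 181 CPM in WT and 141 to 233 CPM in OTC. This sum is without the TMM factors, which were higher in most OTC libraries, so it is not on the scale of the fold changes. Marco, a scavenger receptor, and Vsig4, a complement receptor of Kupffer cells, rose by 1.30 ± 0.37 and 0.39 ± 0.11 (adjusted p = 0.00682 and 0.00683), and Cd9, a tetraspanin, by 0.69 ± 0.14 (adjusted p = 0.00012). None of the 15 lymphocyte and 4 neutrophil genes was called in the main edgeR fit, with 1 and 1 of them at an unadjusted p under 0.05. DESeq2 called 1 lymphocyte gene lower and 1 neutrophil gene higher, as did edgeR fitted to the compared groups only. With DESeq2 size factors or a filter of 1 CPM, edgeR also called 1 neutrophil gene higher. Of 28 stellate cell and matrix genes, 5 were higher and 2, Col1a1 and Col3a1, lower (8 higher and 2 lower of 26 on the TPM scale), together a share near that background. Pdgfra, a growth factor receptor of fibroblasts, rose in every OTC library above the WT range (log2 fold change 0.85 ± 0.16, adjusted p = 9.17e-05). Col3a1, a fibrillar collagen, fell in every OTC library below it (log2 fold change -1.004 ± 0.23, adjusted p = 0.000844), and Dcn, the proteoglycan decorin, rose by 0.47 ± 0.10 (adjusted p = 0.000385). Of 23 endothelial genes, 6 were higher and 1 lower, and 13 and 0 of 23 on the TPM scale. The edgeR share of this list was also near the background. Bmp2, which sets hepcidin in hepatocytes, and Rspo3, which sustains Wnt signalling around the central vein, rose by 0.53 ± 0.11 and 0.40 ± 0.09 (adjusted p = 0.000428 and 0.000826). None of the defining markers of these cell types was at 0. The part of cell composition in these results was not tested.

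The strain difference under the Gls2 hairpin was set beside that under the other vectors, which share no libraries with it. Of the 3924 calls, 2621 (66.8%) were also called in the same direction under the control vector, where they made up 54.3% of the 4830 calls (36.3% of genes, 19.9% higher and 16.4% lower), and 4 were called in the opposite direction. With the Glud1 hairpin 2437 (62.1%) were shared, 52.3% of its 4663 calls (35% of genes, 19.9% higher and 15.1% lower), and 15 were opposite. Across the 13311 genes, which are not independent of one another, the log2 fold changes had a Pearson correlation of 0.785 with the control vector and 0.766 with the Glud1 hairpin. The plot of the vectors shows the pair of values of each gene.

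**Figure D5:**
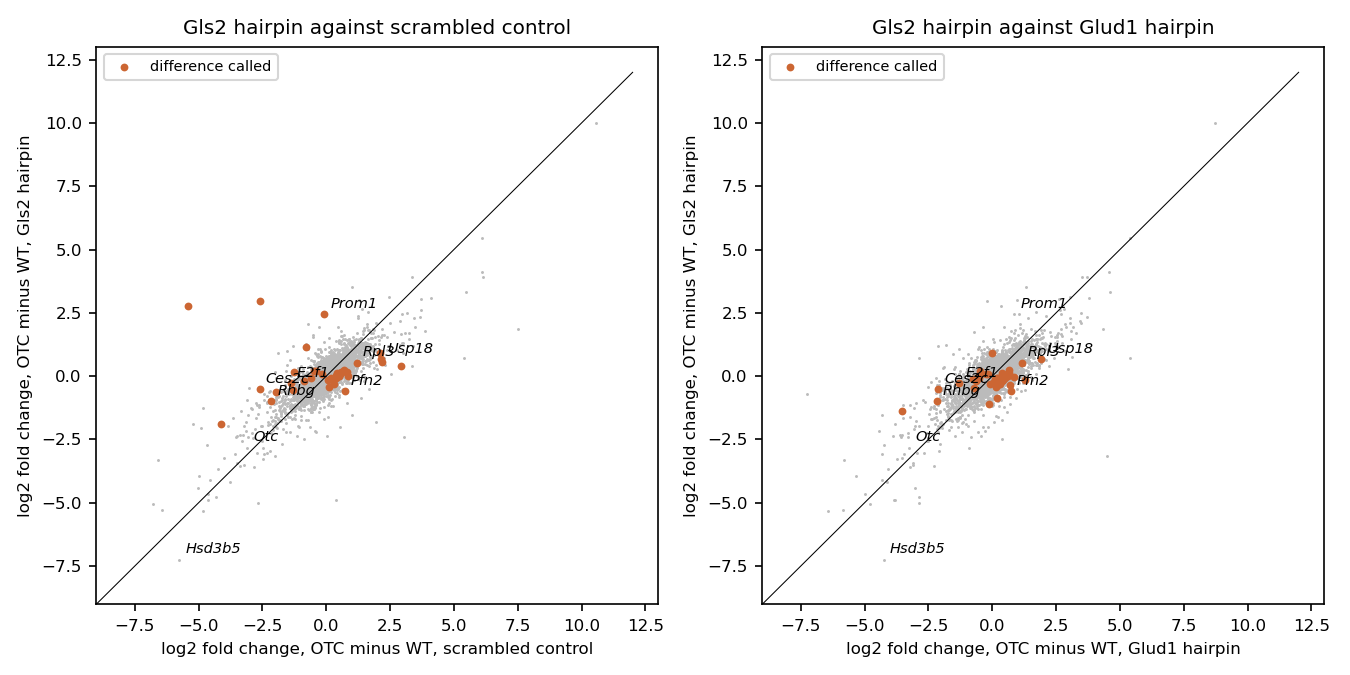
Log2 fold change, OTC minus WT, under the Gls2 hairpin (vertical axes) against that under the scrambled control (left) and the Glud1 hairpin (right) for the 13311 tested genes, orange where the difference between the vectors was called; the line marks equal values. The called differences number 45 on the left and 54 on the right.

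The difference itself was tested for every gene. Against the control vector 45 genes were called (0.338%), 16 (0.12%) with a higher and 29 (0.218%) with a lower value under the Gls2 hairpin, and against the Glud1 hairpin 54 (0.406%), 14 higher (0.105%) and 40 lower (0.301%). Both tests use the same 20 sh-Gls2 libraries. The first count was 26 without WT mouse 14 or OTC mouse 74, 27 without OTC mouse 49 and 28 without OTC mouse 31, and the second was 33 without WT mouse 14 and 35 without OTC mouse 24. Prom1, a membrane glycoprotein of progenitor cells that is also a called rise of the female-biased list, had 0.612 to 5.60 CPM in WT (median 1.55) and 1.72 to 17.1 in OTC (median 12.7). The 2 OTC mice below the rest in Prom1 were again 31 and 39. Its log2 fold change was 2.44 ± 0.36 (adjusted p = 1.57e-06) against -0.07 under control, a difference of 2.51 ± 0.56 (adjusted p = 0.0252). Under sh-Glud1 it was 0.85, and that difference of 1.59 ± 0.60 was not called (adjusted p = 0.216). Of the 31 female-biased genes, a difference was called for 3 against control and for 1 against sh-Glud1. Pfn2, the actin-binding profilin 2, had 12.48 to 23.53 CPM in WT (median 16.7) and 7.58 to 14.4 in OTC (median 10.2) and fell (log2 fold change -0.60 ± 0.15, adjusted p = 0.00163), while it was higher in OTC under control and sh-Glud1 (log2 fold changes 0.72 and 0.73). The differences were -1.32 ± 0.23 and -1.33 ± 0.24 (adjusted p = 0.00379 and 0.00953).

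Other genes had a smaller strain difference under the Gls2 hairpin than under the other vectors. Rhbg differed by -0.99 here and by -2.15 and -2.18 under control and sh-Glud1 (adjusted p of the differences 0.0249 and 0.0185). Usp18, a protease that removes ISG15 and restrains interferon signalling, differed by 0.67 here and by 2.14 and 1.90 there (adjusted p = 0.0129 and 0.0387), and it was named after its values were seen. Ces2c, a carboxylesterase of a family that shares reads, differed by -0.51 here, where it was not called (adjusted p = 0.0895). It differed by -2.61 and -2.13 there (adjusted p of the differences 0.00374 and 0.0186). E2f1, a cell cycle transcription factor, differed by -0.28 here, where it was not called (adjusted p = 0.166). It differed by -1.40 and -1.28 there (adjusted p of the differences 0.0234 and 0.0373). For Usp18 and E2f1 the difference from sh-Glud1 lost its call in 9 and 8 of the 20 fits that left out 1 library.

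Genes of protein synthesis and metabolism were among those with a called difference. Rpl3, a protein of the large ribosomal subunit, had 183 to 219 CPM in WT (median 202) and 229.9 to 404 in OTC (median 288) with no overlap (log2 fold change 0.54 ± 0.08, adjusted p = 2.73e-06), against 1.19 and 1.15 under the other vectors (adjusted p of the differences 0.00505 and 0.00953). Of 58 cytosolic ribosomal protein genes, 5 were higher and 5 lower here (median 0.04), 35 and 4 under control (median 0.28) and 31 and 4 under sh-Glud1 (median 0.23). On the TPM scale 32 were higher and 1 lower here. The difference was called for 4 of them against control and for 1 against sh-Glud1. Eef1d, an elongation factor subunit, differed by -0.05 here, where it was not called (adjusted p = 0.544). It differed by 0.39 and 0.40 under control and sh-Glud1 (adjusted p of the differences 0.0129 and 0.0103). Impdh2, of guanine nucleotide synthesis, differed by 0.01 here, where it was not called (adjusted p = 0.895), and by 0.53 under sh-Glud1 (adjusted p of the difference = 0.00953). Under control it differed by 0.39, and the difference of -0.38 ± 0.10 was not called (adjusted p = 0.0637).

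Aldoa, an aldolase of glycolysis, differed by 0.02 here, where it was not called (adjusted p = 0.857). It differed by 0.52 and 0.60 under control and sh-Glud1 (adjusted p of the differences 0.0252 and 0.00953). Its difference from control lost its call without WT mouse 1, WT mouse 14 or OTC mouse 31. Cyp2a12, a steroid hydroxylase, had the opposite sign under the other vectors, at 0.19 here, where it was not called (adjusted p = 0.0775), and -0.47 and -0.49 there (adjusted p of the differences 0.00508 and 0.00953). Nlrp6, an inflammasome sensor, fell by 0.32 here (adjusted p = 0.00208) and differed by 0.31 and 0.29 there (adjusted p of the differences 0.00508 and 0.00953). Zcchc7, a cofactor of RNA surveillance, fell by 0.44 here (adjusted p = 3.04e-05) and was not called under the others, at 0.13 and 0.13 (adjusted p of the differences 0.0104 and 0.00953).

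At the other end, 70 genes (0.526%) kept the OTC and WT libraries apart under all 3 vectors, 21 higher (0.158%) and 49 lower (0.368%) in OTC. Tuba8, an alpha-tubulin, had 0.988 to 5.83 CPM in WT (median 3.30) and 9.65 to 21.9 in OTC (median 15.4), with log2 fold changes of 2.18 ± 0.32 here and 2.89 and 3.42 under control and sh-Glud1. Smoc2, a matricellular protein, had 5.04 to 16.4 CPM in WT (median 9.86) and 23.6 to 53.9 in OTC (median 45.6), with 1.86 ± 0.20 here and 2.20 and 2.68 there. Ranbp3l and Emp2, an epithelial membrane protein, rose by 1.63 ± 0.22 and 1.08 ± 0.15. The adjusted p was 1.57e-06 for Tuba8, 1.02e-09 for Smoc2, 3.93e-07 for Ranbp3l and 5.77e-07 for Emp2. On the lower side, Sult2a8, a sulfotransferase, had 492 to 789.7 CPM in WT (median 687) and 36.9 to 134 in OTC (median 80.7) (log2 fold change -3.03 ± 0.38, adjusted p = 4.71e-08). Ces3a, a carboxylesterase, had 1268 to 2072 CPM in WT (median 1540.2) and 35.2 to 514 in OTC (median 131) (log2 fold change -2.96 ± 0.48, adjusted p = 7.52e-06). Sema5b, a semaphorin, fell by 2.34 (adjusted p = 2.35e-05). Alas2, Scp2, Mup3 and F11, described above, belong to this set.

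The neighbours of Otc on the X chromosome were examined by position. Of 45 tested genes that start within 5 Mb of it, 5 were higher and 5 lower (22.2%, against 29.5% of all genes). Its neighbours on either side were not called, nor was the next one downstream, at log2 fold changes of -0.04 ± 0.11 for Rpgr, a ciliary protein, 0.09 ± 0.10 for the tetraspanin Tspan7 and -0.27 ± 0.22 for Mid1ip1, a regulator of lipogenesis (adjusted p = 0.813, 0.486 and 0.376). Porcn, which acylates Wnt proteins, had 1.35 to 2.08 CPM in WT (median 1.78) and 2.19 to 4.35 in OTC (median 2.81) and was the 1 neighbour without overlap (log2 fold change 0.71 ± 0.16, adjusted p = 0.000622). Xk, a membrane protein of the Kell blood group complex, fell by 0.74 (adjusted p = 2.68e-05), and Rbm3, a cold-induced RNA-binding protein, rose by 0.86 ± 0.22 (adjusted p = 0.00245).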

How the data were processed

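RNA from 55 mouse livers was sequenced after a stranded mRNA kit (KAPA) with 12 PCR cycles, per the labels' protocols. CASAVA 1.8.2, FastQC and GRCm38 stand in the submitters' processing notes; the aligner and counter are not given in the sources used here. The authors deposited raw counts per gene, used for all main results, and TPM per gene, used as an alternative scale. Counts were tested in edgeR 4.0.16 (R 4.3.3), with TMM scaling, a low-count filter of 10 counts and a quasi-likelihood fit of all 6 groups of strain and vector to share 1 estimate of spread; 13311 of 24475 symbols passed. P-values were adjusted by the Benjamini-Hochberg method, and a replicate is 1 mouse. Totals of 14489866 to 22001267 counts limit low genes, since counting error is large there. Tested on simulated data for this comparison over 13206 genes, the fit recovered 74% of 100 genes changed 1.5-fold and 94.9% of 99 changed 2-fold, with 6 false among 174 calls. Few genes were changed there, in random directions, while 29.5% of genes were called in the data. Recovery and false calls in the data may therefore differ from these figures. Alternatives were DESeq2 1.42.0, its size factors, other filters, limma 3.58.1 on log2(TPM + 1) and log2(TPM + 0.1), mouse number terms and leaving out libraries.

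The comparison and its 45 gene lists were chosen with earlier results of these data known. Genes were named by a rule with 5 parts beside the 3 targeted genes. It took the extremes of the fold change (12 in each direction, called, not of a predicted gene, and above 1 log2 CPM on average). It took the 4 best called members per list, and 6 per direction of the called differences between vectors in either contrast. It took 6 per direction of the genes without overlap under all 3 vectors, and the genes within 5 Mb of Otc. The rule selected 228 genes, of which 129 are named, and 9 others were named after their values were seen.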

Additional observations from a re-analysis of the deposited data

Results flagged for a closer look

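Single libraries stood away from the other 9 of their group, by a gap above Dixon's 95% critical value (0.466 for 10 samples) on log2(CPM + 1), in 24 of 276 checks of a gene in a group, where chance gives about 5%. WT mouse 79 had the highest level of its group in Cux2 (1.33 CPM, next 0.443 CPM). OTC mouse 24 had the highest level of its group in Sult1e1 (117 CPM, next 25.3 CPM). WT mouse 8 had the highest level of its group in Rsad2 (39.1 CPM, next 19.1 CPM). WT mouse 45 had the highest level of its group in Elovl5 (954 CPM, next 611 CPM), G0s2 (62.8 CPM, next 22.4 CPM) and Fabp1 (3143 CPM, next 2075 CPM). WT mouse 1 had the highest level of its group in Hspd1 (471 CPM, next 442 CPM). OTC mouse 73 had the highest level of its group in Fdft1 (228 CPM, next 168 CPM). OTC mouse 74 had the highest level of its group in Scd2 (22.3 CPM, next 16.2 CPM). WT mouse 34 had the highest level of its group in Alas2 (141 CPM, next 97.1 CPM) and Slc4a1 (3.64 CPM, next 1.47 CPM). OTC mouse 4 had the highest level of its group in Rpl3 (404 CPM, next 308 CPM). OTC mouse 21 had the highest level of its group in Aldoa (114 CPM, next 97.4 CPM). WT mouse 79 had the lowest level of its group in Mdm2 (27.3 CPM, next 33.1 CPM), Pdia3 (354 CPM, next 444 CPM), Fkbp4 (75.6 CPM, next 105 CPM), Cpt2 (96.3 CPM, next 118 CPM) and C4bp (409.6 CPM, next 512 CPM). WT mouse 45 had the lowest level of its group in Usp18 (4.47 CPM, next 10.995 CPM), Serpina1a (2906 CPM, next 3486 CPM) and Sult2a8 (492 CPM, next 623 CPM). WT mouse 34 had the lowest level of its group in E2f1 (2.66 CPM, next 3.67 CPM). OTC mouse 39 had the lowest level of its group in Rspo3 (5.15 CPM, next 7.89 CPM). WT mouse 30 had the lowest level of its group in Impdh2 (20.8 CPM, next 22.6 CPM). 

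The strain difference itself differed between vectors for some named genes, by the edgeR test of the interaction with Benjamini-Hochberg adjustment. For Prom1, the log2 fold change under the Gls2 hairpin differed by 2.51 against control (adjusted p = 0.0252). For Rhbg, the log2 fold change under the Gls2 hairpin differed by 1.17 against control (adjusted p = 0.0249) and 1.19 against sh-Glud1 (adjusted p = 0.0185). For Usp18, the log2 fold change under the Gls2 hairpin differed by -1.47 against control (adjusted p = 0.0129) and -1.24 against sh-Glud1 (adjusted p = 0.0387). For Pfn2, the log2 fold change under the Gls2 hairpin differed by -1.32 against control (adjusted p = 0.00379) and -1.33 against sh-Glud1 (adjusted p = 0.00953). For Cyp2a12, the log2 fold change under the Gls2 hairpin differed by 0.66 against control (adjusted p = 0.00508) and 0.68 against sh-Glud1 (adjusted p = 0.00953). For Ces2c, the log2 fold change under the Gls2 hairpin differed by 2.09 against control (adjusted p = 0.00374) and 1.62 against sh-Glud1 (adjusted p = 0.0186). For Rpl3, the log2 fold change under the Gls2 hairpin differed by -0.66 against control (adjusted p = 0.00505) and -0.61 against sh-Glud1 (adjusted p = 0.00953). For Nlrp6, the log2 fold change under the Gls2 hairpin differed by -0.63 against control (adjusted p = 0.00508) and -0.61 against sh-Glud1 (adjusted p = 0.00953). For Zcchc7, the log2 fold change under the Gls2 hairpin differed by -0.57 against control (adjusted p = 0.0104) and -0.58 against sh-Glud1 (adjusted p = 0.00953). For Eef1d, the log2 fold change under the Gls2 hairpin differed by -0.44 against control (adjusted p = 0.0129) and -0.45 against sh-Glud1 (adjusted p = 0.0103). For Impdh2, the log2 fold change under the Gls2 hairpin differed by -0.52 against sh-Glud1 (adjusted p = 0.00953). For Aldoa, the log2 fold change under the Gls2 hairpin differed by -0.50 against control (adjusted p = 0.0252) and -0.58 against sh-Glud1 (adjusted p = 0.00953). For E2f1, the log2 fold change under the Gls2 hairpin differed by 1.11 against control (adjusted p = 0.0234) and 0.999 against sh-Glud1 (adjusted p = 0.0373). Both contrasts use the same 20 libraries of the Gls2 hairpin.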

How the results depend on the processing

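Otc kept its call in every fit, at log2 fold changes of -2.85 to -2.79 when 1 library of the Gls2 hairpin was left out. So left out, 1683 to 2045 genes were higher and 1747 to 2108 lower, 168 to 204 by at least 2-fold higher and 184 to 218 lower, and the differences from control numbered 26 to 64 and from sh-Glud1 33 to 72. On log2(TPM + 1), 4247 genes were higher and 749 lower (109 and 92 by at least 2-fold, with 21 differences from control and 98 from sh-Glud1). On log2(TPM + 0.1), 4193 were higher and 741 lower (113 by at least 2-fold lower), with 23 and 90 differences. The TPM scale kept 61.0% of the calls in the same direction. Without a filter on low counts, 286 genes were at least 2-fold higher and the differences numbered 24 and 27. DESeq2 called 84 and 101 differences, and a fit of the compared groups only 19 and 86; the cause was not tested.

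Splits by mouse number were added after seeing the data, which leave fewer libraries. Among mice numbered below 45, 1247 genes were higher and 1287 lower, with 4 and 0 differences. Among mice numbered 45 or higher, 145 were higher and 252 lower (55 and 75 by at least 2-fold), with 0 and 7 differences. Of 138 named genes, 127 and 55 kept their side of the threshold there, and all 138 did under DESeq2, its size factors and a filter of 1 CPM. On log2(TPM + 1) 129 of 136 did, with Car5a, Glul, H2-D1, B2m and Hspd1 no longer called and Cyp2a12 and Aldoa newly called. No named gene changed sign with a call. No paired analysis was possible because mouse numbers do not recur across the groups. Counting error limits genes of few counts, such as Cux2 in WT. Strain background, the Otc allele and the response to the diet cannot be told apart here.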

Other observations

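Some lists fixed for this comparison are not described above. Of 34 genes of the ATF4 and amino acid response, which cells switch on when amino acids run short, 6 were higher and 5 lower (median 0.11), against 10 and 2 of 28 on the TPM scale (median 0.30), with 3 lower without WT mouse 18, WT mouse 14, OTC mouse 73 or OTC mouse 4. Of 43 nuclear genes of oxidative phosphorylation, 5 were higher and 0 lower (median 0.04), while on the TPM scale 36 were higher and 0 lower (median 0.19); 3 were higher without any of 6 libraries. Of 25 genes of pyrimidine and purine synthesis, 3 were higher and 4 lower, against 9 and 2 on the TPM scale, with a median that turned from -0.02 to 0.13, and 5 were higher without OTC mouse 50. The heme and iron list had 5 higher and 3 lower of 24 (6 higher and 2 lower of 24 on the TPM scale), with 2 higher without OTC mouse 50 or OTC mouse 21. Of 36 cell cycle genes, 1 was lower (median -0.31; 2 higher and 0 lower of 13 on the TPM scale), and 7 were lower without OTC mouse 21 and 6 without OTC mouse 31. Polyamine metabolism had 2 higher and 2 lower of 13 (2 higher and 1 lower of 12 on the TPM scale). MHC class II had 1 higher of 12, bile duct and progenitor genes 3 higher of 17, fetal liver genes 3 higher of 9, and mitochondrial genes of oxidative phosphorylation 1 lower of 13. On the TPM scale these 4 lists had 2 of 10, 3 of 12, 3 of 6 and 3 of 13 higher and 0 lower in the last.

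Among the 65 genes with a position that separated the strains under all 3 vectors, 10 lay within 200 kb of another and formed 5 runs (GRCm38), a grouping chosen after the values were seen. On chromosome 6, Slc15a5, of a peptide transporter family, and Mgst1, a microsomal glutathione transferase, were both lower (log2 fold changes -2.25 and -0.55) within chr6:137983586-138156755. On chromosome 7, Snrnp70, of the U1 splicing particle, and Bax were higher (0.21 and 0.74) at either end of chr7:45376453-45466898, with 3 tested genes between them that were not called. On chromosome 8, F11 and Cyp4v3 were lower (-1.61 and -0.96) in chr8:45241174-45333216. Klkb1, the plasma kallikrein, lay between them and was lower (-0.49), but it did not separate the strains under all 3 vectors. Ces3a and Ces3b, carboxylesterases of a family that shares reads, were lower (-2.96 and -1.44) in chr8:105048601-105093929. On chromosome 9, the overlapping genes 4931406C07Rik and Taf1d, a subunit of the RNA polymerase I factor, moved in opposite directions (-0.65 and 0.75) in chr9:15283337-15316991.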
